A study of Mus musculus with 6 samples.

Results

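The cytokine receptors that steer T cell differentiation were followed as 10 genes, namely Il4ra, Il21r, Il6ra, Il6st, Il12rb1, Il12rb2, Ifngr1, Ifngr2, Tgfbr1 and Tgfbr2. The genes were chosen by name and matched to the identifiers of the deposited tables, which hold 52550 genes and 131146 transcripts; 44 of those transcripts belonged to the 10 genes. All 6 samples were splenic CD3+ T cells of wild-type (WT) mice activated through the TCR with antibodies to CD3 and CD28, and RNA was taken at 24 h. Activation alone gave 3 samples (TCR alone), and 3 more received DMGV (dimethylguanidino valeric acid) at 100 ng/ml along with the antibodies (TCR+DMGV). DMGV is the name in the sample labels. The study's text gives the same dose and time for this experiment but calls the added factor LNY1. In the study these are different: LNY1 was purified from fibroblast medium and taken to be ADMA and SDMA, which AGXT2 converts to DMGV. Elsewhere in the study, cultures mostly received LNY1 at 100 ng/ml, while DMGV doses for cultures were given in µM. Since labels and text differ, which of the factors was added cannot be told from these sources. The group name follows the labels. The labels call the replicates biological and do not say whether each came from its own animal, nor do they give the age, sex or strain of the mice.

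Each of these receptors is built from paired chains. A cytokine such as IL-4, IL-6, IL-12, IL-21 or IFN-gamma brings the chains together, JAK kinases bound to their tails phosphorylate each other, and STAT factors carry the signal to the nucleus. TGF-beta works through a pair of serine/threonine kinase receptors, of which the type II chain binds the ligand and activates the type I chain, which phosphorylates SMAD proteins. In T cells IL-12 and IFN-gamma favor the Th1 fate, IL-4 the Th2 fate, IL-6 and IL-21 the Th17 and follicular helper fates, and TGF-beta the regulatory fate or, together with IL-6, the Th17 fate.

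Among the transcripts scored, the RNA of 3 receptors was counted both as a form with a membrane-spanning stretch and as a form without one. The exons that make the difference are printed here. No transcript of Ifngr1 or Ifngr2 was scored, nor were most minor transcripts. The reading frames were read from the GENCODE M21 transcripts (GRCm38), and every window of 19 codons from codon 41 on was scored for mean hydropathy on the Kyte-Doolittle scale, on which means above 1.6 mark stretches of the kind that cross membranes. For Il4ra-201, Il21r-201 and Il12rb1-201 the exon with the most hydrophobic 19 codons is shown in full with those codons in capitals, all on the plus strand.
Il4ra-201, exon 8, chr7:125572851-125572950: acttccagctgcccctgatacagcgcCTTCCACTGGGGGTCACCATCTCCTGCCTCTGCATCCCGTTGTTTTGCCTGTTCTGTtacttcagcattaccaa
Il21r-201, exon 7, chr7:125629738-125629834: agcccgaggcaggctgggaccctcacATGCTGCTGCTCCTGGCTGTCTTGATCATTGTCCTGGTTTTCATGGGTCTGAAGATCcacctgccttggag
Il12rb1-201, exon 14, chr8:70819325-70819421: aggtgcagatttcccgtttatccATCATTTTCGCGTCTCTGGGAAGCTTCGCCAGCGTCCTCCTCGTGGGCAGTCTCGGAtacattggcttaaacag

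The second transcript of Il4ra, Il4ra-205, has an additional exon of 114 bases just before that membrane exon, at chr7:125571934-125572047. Its reading frame ends 18 bases into the additional exon. The join of exon 7 (its last 10 bases) to the additional exon is shown up to the stop codon, which is in capitals.
Il4ra-205, plus strand: tggtacaacccaagtaatgaaaatctgTGA
The frame of Il4ra-205 holds 230 codons against 810 in Il4ra-201, and its highest mean hydropathy was 0.737 against 2.25. Mouse Il4ra is known to give a secreted receptor through an additional exon that ends the frame ahead of the membrane-spanning part. The annotation files Il4ra-205 under nonsense-mediated decay.

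Il21r-202 and Il12rb1-205 each leave out the 97-base exon printed above, a length that is not a multiple of 3. In Il21r-202 the frame holds 268 codons against 529 in Il21r-201, and its highest mean hydropathy was 0.974 against 2.99. In Il12rb1-205 the frame holds 668 codons against 738 in Il12rb1-201, and the values were 0.879 and 1.97. No window of these forms, nor of Il4ra-205, passed 1.6. The Il6ra, Il6st, Il12rb2, Tgfbr1 and Tgfbr2 transcripts scored in the same way all held a window above it.

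**Figure D1:**
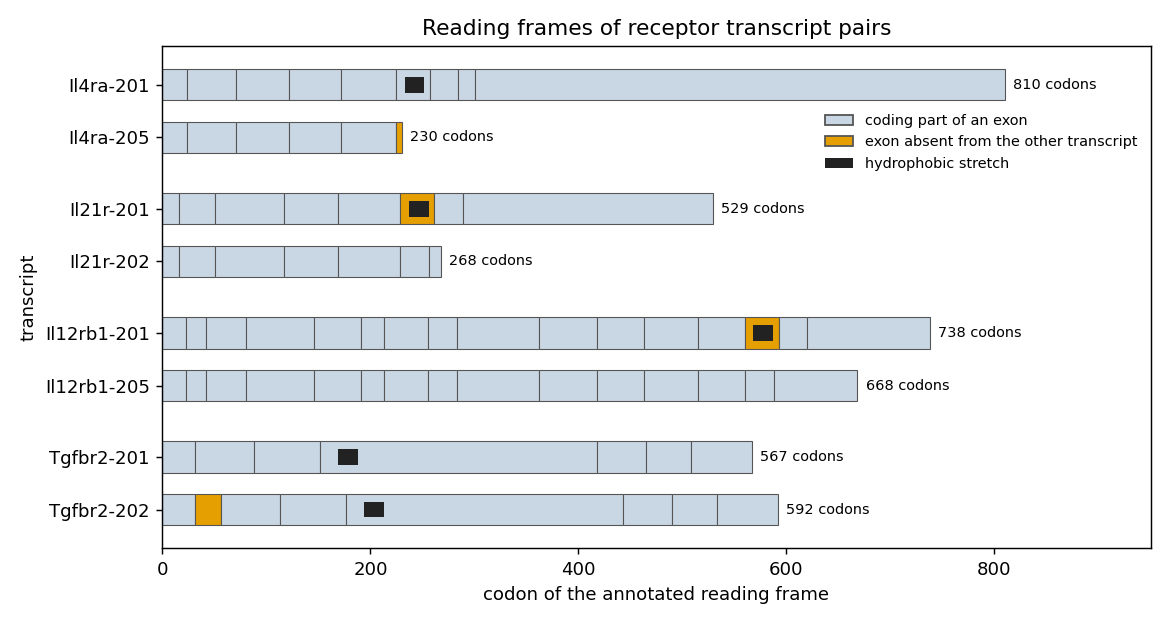
Annotated reading frames of 4 transcript pairs, drawn to scale in codons. Boxes are the coding parts of exons, the exon absent from the other transcript of the pair is orange, and the most hydrophobic 19 codons are black where their mean hydropathy was above 1.6. Il4ra-205, Il21r-202 and Il12rb1-205 carry no black stretch, whereas both Tgfbr2 transcripts do.

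Transcripts of Il6ra, Tgfbr1 and Tgfbr2 differ by smaller coding pieces. Il6ra-201 has 3 bases more than Il6ra-202 at the start of exon 7 (chr3:89878893-89878895), and Tgfbr1-201 has 12 bases more than Tgfbr1-202 at the start of exon 3 (chr4:47393247-47393258). Tgfbr2-202 has a whole additional coding exon of 75 bases (chr9:116158271-116158345), which keeps the frame and gives 592 codons against 567 in Tgfbr2-201. The added bases are in capitals where they are set in their neighboring exons, and the Tgfbr2 exon stands alone.
Il6ra-201, minus strand: ctccttggatagCAGagcccaggacca
Tgfbr1-201, plus strand: caactacagGACCTTTTTCAGaaaagcagt
Tgfbr2-202, exon 2, minus strand: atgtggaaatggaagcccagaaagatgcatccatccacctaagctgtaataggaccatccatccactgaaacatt

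None of the 10 receptor genes differed between TCR+DMGV and TCR alone at an adjusted p under 0.05 (edgeR quasi-likelihood test, Benjamini-Hochberg adjustment over 14786 tested genes), and none had an unadjusted p under 0.05. Over all tested genes 2 passed the threshold (0.0135%) and 471 had an unadjusted p under 0.05 (3.19%). The mean was higher in TCR+DMGV for 4 receptors and lower for 6, with a median log2 fold change of -0.027 beside 0.0024 over all tested genes. The largest differences were those of Tgfbr1 (-0.22) and Il6st (0.21). All 95% intervals spanned no change and lay between 0.636-fold and 1.47-fold. DESeq2 called 14 genes and no receptor, and the lowest adjusted p of any receptor under any alternative tried was 0.649.

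Levels between genes were compared as the deposited gene FPKM (fragments divided by a length of the gene or transcript and by the size of the library). A gene value is not the sum of its transcript values. Il6ra had 6.20 FPKM in TCR alone replicate 3, where its transcript Il6ra-201 alone had 8.25. Il4ra had the highest mean over the 6 samples, 47.2 FPKM, followed by Il21r with 42.4, and their ranges overlapped. Il12rb1 (32.5 FPKM), Il12rb2 (20.6) and Ifngr1 (10.9) followed, and each stood apart from its neighbor in the order in all samples. Exons of Il12rb2 share 1519 bases with Serbp1, a gene on the opposite strand. Whether the counting used strand is not given, so all Il12rb2 values here may include reads of Serbp1. Tgfbr2 (7.89), Ifngr2 (6.44), Il6ra (6.05), Il6st (5.99) and Tgfbr1 (4.28) made up the lower end, and there every gene overlapped with the next. Among the tested genes Il4ra exceeded 92.6% in mean FPKM and Tgfbr1 50.3%. Il4ra and Il21r, whose products pair with the common gamma chain, were thus the most abundant RNAs of the 10. By gene FPKM, Ifngr2, Il6ra, Il6st and Tgfbr1 had the lowest means. By summed transcript FPKM, Il6ra ranked 6, Tgfbr2 7 and Ifngr2 9. By counts per kilobase of the longest annotated transcript, Il21r ranked 1 and Il4ra 2.

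**Figure D2:**
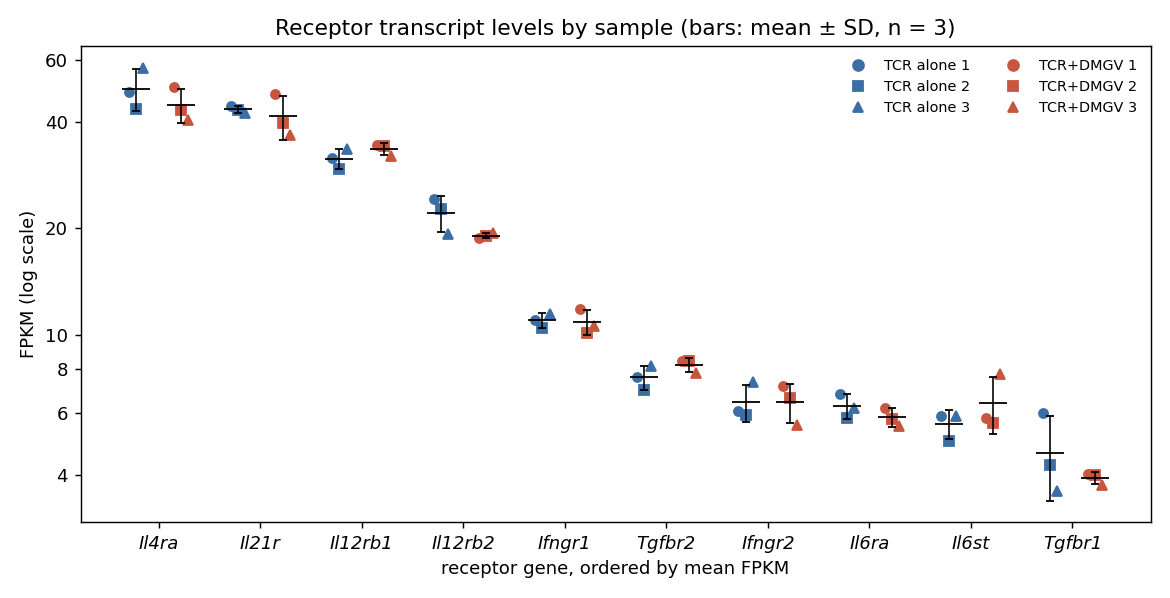
FPKM of the 10 receptor genes in each of the 6 samples on a log axis, ordered by mean, with black bars for the mean ± SD of 3 samples. Il4ra and Il21r lie at the top with means of 47.2 and 42.4, Tgfbr1 at the bottom with 4.28, and the ranges of the blue (TCR alone) and red (TCR+DMGV) points overlap for all 10 genes.

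Within a gene, samples were compared as CPM (counts relative to library size after TMM scaling). Il12rb1 and Tgfbr2 were the 2 receptors whose groups did not overlap, both with higher values in TCR+DMGV; over all tested genes 8.86% did not overlap, 4.92% with higher and 3.94% with lower values in TCR+DMGV. On the FPKM scale, which has no TMM factor, the groups overlapped for all 10 receptors. RNA of a mixed population was measured, so more cells with a receptor and more RNA per cell cannot be told apart.

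**Figure D3:**
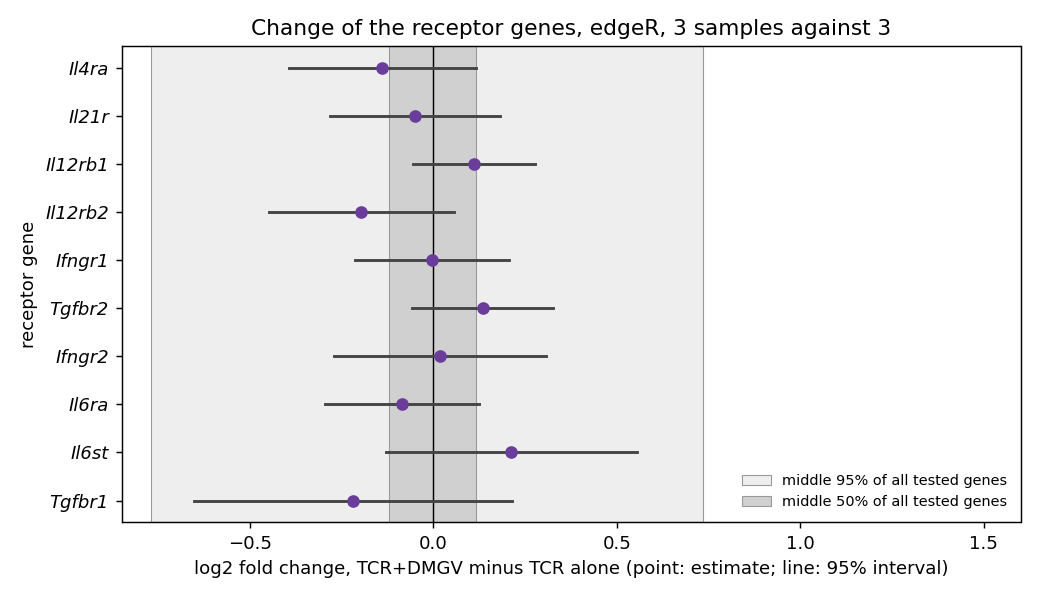
Log2 fold change of each receptor gene (point) with its 95% interval (line) from edgeR, with the middle 95% (-0.77 to 0.73) and the middle 50% (-0.12 to 0.11) of all tested genes shaded. Every line crosses 0, and the widest interval belongs to Tgfbr1.

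Il12rb1 (ENSMUSG00000000791.9, chr8:70808449-70821424) codes for the chain that the IL-12 and IL-23 receptors share. Its CPM was 144, 138 and 151 in TCR alone replicates 1 to 3 and 156, 160 and 152 in TCR+DMGV. All TCR+DMGV samples were above all TCR alone samples, by a narrow margin. With edgeR its log2 fold change was 0.11 (SE 0.071, 95% interval -0.06 to 0.28, unadjusted p = 0.159, adjusted p = 0.999). Il12rb2 (ENSMUSG00000018341.12, chr6:67291318-67376188), the IL-12-specific chain that recruits STAT4, had the smallest p of the 10. Its CPM was 102, 98.8 and 80.3 in TCR alone and 78.6, 82.6 and 84.4 in TCR+DMGV. TCR alone replicates 1 and 2 were high and the third was among the TCR+DMGV values, and the log2 fold change was -0.20 (SE 0.108, interval -0.45 to 0.06, unadjusted p = 0.109, adjusted p = 0.999).

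The Il12rb2 values differed between samples of the same group. TCR alone replicate 3 and TCR+DMGV replicate 1 stood apart from the other 4 samples on the first principal component of all tested genes (42.1 and 42.9 against -34.9 to -10.5), which held 32.2% of the variance. These were also the samples with the lowest Il12rb2 CPM in their groups. Without TCR alone replicate 3 the log2 fold change of Il12rb2 was -0.29 (edgeR unadjusted p = 0.0088, adjusted p = 0.649). Without both samples it was -0.27 (edgeR unadjusted p = 0.0223, adjusted p = 0.733). A term for both samples in the edgeR fit gave -0.19 (unadjusted p = 0.0487, adjusted p = 0.906). The cause of the library difference was not tested. The 3 genes whose log2 CPM was most like that of Il12rb2 over the 6 samples, of 14785 compared, were Klf6 (Pearson r = 0.990), a zinc finger transcription factor, Kif11 (0.988), a motor protein of the mitotic spindle, and Rnf227 (0.987). These 6 points share their libraries, and the correlations are descriptions.

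Ifngr1 (ENSMUSG00000020009.12, chr10:19591949-19610229), the ligand-binding chain of the IFN-gamma receptor, was the receptor with the smallest difference. Its CPM was 35.0, 34.1 and 35.8 in TCR alone and 37.1, 32.9 and 34.7 in TCR+DMGV, and the log2 fold change was -0.0035 (SE 0.089, interval -0.21 to 0.21, unadjusted p = 0.970). Ifngr2 (ENSMUSG00000022965.7, chr16:91547072-91565623), the signaling chain that brings JAK2, had 22.4, 22.5 and 26.7 CPM in TCR alone and 26.1, 25.1 and 21.2 in TCR+DMGV. The TCR+DMGV values of both genes lay within or around the TCR alone range, and the log2 fold change of Ifngr2 was 0.02 (SE 0.123, interval -0.27 to 0.31, unadjusted p = 0.891).

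Il4ra (ENSMUSG00000030748.9, chr7:125552120-125579474) codes for the chain that binds IL-4 and recruits STAT6, and also serves the IL-13 receptor. Its CPM was 325, 299.7 and 375 in TCR alone and 332, 296 and 279 in TCR+DMGV. The highest sample was TCR alone replicate 3 and the lowest TCR+DMGV replicate 3, with the others between. For Il4ra edgeR gave a log2 fold change of -0.14 (SE 0.108, interval -0.39 to 0.11, unadjusted p = 0.237), and without TCR alone replicate 3 it was -0.04. Il21r (ENSMUSG00000030745.9, chr7:125603429-125633570), which lies downstream on the same chromosome and codes for the IL-21-binding chain, had 165, 165 and 155 CPM in TCR alone and 176, 150 and 141 in TCR+DMGV. Here the TCR+DMGV samples held both the highest and the lowest value, and the log2 fold change was -0.05 (SE 0.098, interval -0.28 to 0.18, unadjusted p = 0.622) and 0.018 without TCR+DMGV replicate 3.

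Il6ra (ENSMUSG00000027947.11, chr3:89864059-89913196), the IL-6-binding chain, had 65.5, 57.4 and 58.8 CPM in TCR alone and 59.2, 56.9 and 54.9 in TCR+DMGV. The log2 fold change was -0.09 (SE 0.089, interval -0.30 to 0.12, unadjusted p = 0.363), with TCR alone replicate 1 above the rest. Il6st (ENSMUSG00000021756.12, chr13:112464070-112510086) codes for gp130, the signaling chain that receptors of the IL-6 family share. Its CPM was 72.6, 63.6 and 71.9 in TCR alone and 71.3, 71.1 and 98.8 in TCR+DMGV. One sample set this difference: 2 TCR+DMGV samples lay within the TCR alone range and the third was far above it. The log2 fold change was 0.21 (SE 0.146, interval -0.13 to 0.55, unadjusted p = 0.187), and without TCR+DMGV replicate 3 it was 0.04.

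Tgfbr1 (ENSMUSG00000007613.15, chr4:47353222-47414931), the type I TGF-beta receptor, was the most variable of the 10 genes with a coefficient of variation of 20.1% over the 6 samples. Its CPM was 43.8, 32.1 and 25.9 in TCR alone and 29.1, 29.9 and 28.3 in TCR+DMGV. The TCR alone samples spread on both sides of the closely grouped TCR+DMGV samples. In edgeR this gave a log2 fold change of -0.22 (SE 0.184, interval -0.65 to 0.21, unadjusted p = 0.270). Leaving out TCR alone replicate 1 gave -0.0098, and leaving out the third gave -0.38. Tgfbr2 (ENSMUSG00000032440.13, chr9:116084293-116175360), the ligand-binding type II receptor, had 69.1, 65.5 and 73.3 CPM in TCR alone and 75.9, 78.7 and 73.5 in TCR+DMGV. The groups were apart by the gap between 73.3 and 73.5 CPM, and the log2 fold change was 0.13 (SE 0.081, interval -0.06 to 0.32, unadjusted p = 0.142). Of all pairs among the 10 genes, Tgfbr2 and Il12rb1 were the most alike across samples (r = 0.999 for log2 CPM, 6 samples, a description).

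A signal passes only through a complete receptor, so the ratio of the chains within a sample was also compared, from FPKM, for 6 pairs. These are FPKM of whole genes, so for Il4ra, Il21r and Il12rb1 they include the forms without a membrane-spanning stretch. Of these, Il4ra-205 held 51.0 to 67.5% of the counts of its gene. The exact two-sided permutation test of 3 against 3 samples cannot give a p below 0.1. The ratio of Il4ra to Il2rg, the common gamma chain that completes the IL-4 receptor, was 0.258, 0.231 and 0.266 in TCR alone and 0.214, 0.219 and 0.202 in TCR+DMGV. It was the only pair of the 6 with all TCR+DMGV samples below all TCR alone samples, with a log2 difference of -0.25 (exact permutation p = 0.1, the smallest the design allows, adjusted p = 0.4 over the 6 ratios). The geometric means were 0.252 in TCR alone and 0.212 in TCR+DMGV, and leaving out single samples gave -0.31 to -0.21. Il2rg itself had a log2 fold change of 0.11 (unadjusted p = 0.218), so neither chain differed on its own at the threshold.

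The ratio of Il21r to Il2rg was 0.236, 0.229 and 0.199 in TCR alone and 0.205, 0.201 and 0.184 in TCR+DMGV, with a log2 difference of -0.17 (exact permutation p = 0.3, adjusted p = 0.45). These last ratios share Il2rg as denominator, so they are not independent. The ratio of Il12rb2 to Il12rb1 was 0.768, 0.774 and 0.577 in TCR alone and 0.545, 0.558 and 0.603 in TCR+DMGV. TCR alone replicate 3 lay among the TCR+DMGV samples, and the log2 difference was -0.30 (exact permutation p = 0.2, adjusted p = 0.4). The ratio of Ifngr2 to Ifngr1 had geometric means of 0.585 and 0.593 and a log2 difference of 0.02 (exact permutation p = 0.9).

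For the IL-6 receptor, Il6st to Il6ra was 0.863, 0.863 and 0.952 in TCR alone and 0.936, 0.973 and 1.40 in TCR+DMGV. The high value was again TCR+DMGV replicate 3, and the log2 difference of 0.28 (exact permutation p = 0.2, adjusted p = 0.4) was 0.10 without it. For the TGF-beta receptor, Tgfbr2 to Tgfbr1 was 1.26, 1.63 and 2.27 in TCR alone and 2.09, 2.10 and 2.08 in TCR+DMGV. The TCR+DMGV samples were nearly equal and lay inside the wide TCR alone range, with a log2 difference of 0.32 (exact permutation p = 0.4, adjusted p = 0.48) that was 0.12 without TCR alone replicate 1.

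**Figure D4:**
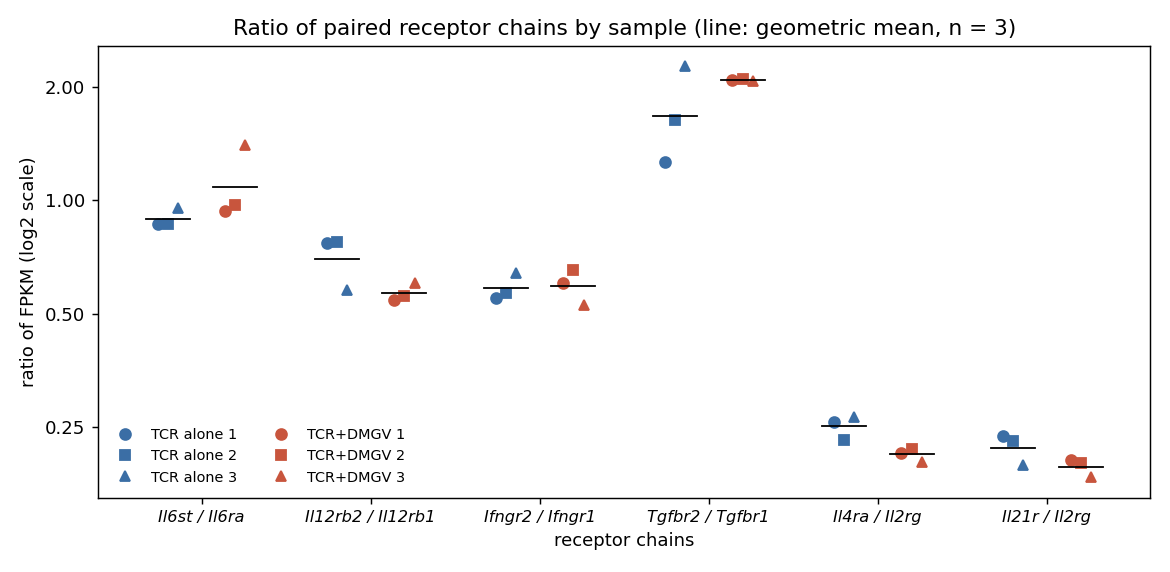
Ratio of FPKM of paired receptor chains in each sample, on a log2 axis, with the geometric mean of 3 samples as a line. Il4ra / Il2rg is the one pair whose red (TCR+DMGV) points all lie below the blue (TCR alone) points, 0.202 to 0.219 against 0.231 to 0.266.

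Of the 44 receptor transcripts, 39 had a count in at least one sample and 27 passed the filter on low counts. None of the 27 differed in level at an adjusted p under 0.05 (edgeR), and none had an unadjusted p under 0.05; over all 38401 tested transcripts 0.0% passed the threshold, and 1235 (3.22%) had an unadjusted p under 0.05. DESeq2 called 400 transcripts in all and none of those named here. Usage of a transcript within its gene was tested for 26 receptor transcripts and none was called, beside 137 of 31395 over all genes (0.436%), and none had an unadjusted p under 0.05, beside 2.51%. Shares of the groups did not overlap for 4 of the 26, beside 9.32% over all transcripts tested for usage; these were Tgfbr2-201, its counterpart Tgfbr2-202, and the minor Il12rb1-202 and Il12rb1-203. Transcript counts are estimates by the authors' program from reads that can fit several transcripts of a gene, so a share is less certain than a gene's total. The transcripts compared also differ in their first or last exons. A share is therefore that of a whole transcript and not of the printed bases alone. In 7 of the 10 genes a second transcript held 10% or more of the gene's counts in at least one group.

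The form of Il4ra with the early stop was the larger one in all 6 samples. Its last exon is also shorter, with 2444 bases against 3951 in Il4ra-201. The counts of Il4ra-205 were 6720, 6772 and 7927 in TCR alone and 7991, 6776 and 7462 in TCR+DMGV. Those of Il4ra-201 were 5554, 5427 and 7505 in TCR alone and 6735, 5927 and 3511 in TCR+DMGV. As a share of the gene's counts, Il4ra-205 made up 54.5, 55.4 and 51.0% in TCR alone and 54.0, 53.1 and 67.5% in TCR+DMGV. The samples lay within a few percentage points of each other except TCR+DMGV replicate 3, in which the full-length form was the lowest of all samples. The means were 53.6% ± 2.27 and 58.2% ± 8.04 (SD, n = 3 each), and the log2 fold change of Il4ra-205 was -0.03 (edgeR interval -0.28 to 0.23) and that of Il4ra-201 -0.29 (-0.88 to 0.31). Per length, as FPKM, Il4ra-205 held 58.7 to 72.9% over the 6 samples.

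The forms of Il21r and Il12rb1 without the membrane exon were smaller parts of their genes. The share of Il21r-202 in its gene was 6.38, 5.26 and 17.4% in TCR alone and 9.41, 17.4 and 22.1% in TCR+DMGV. TCR alone replicate 3 and TCR+DMGV replicates 2 and 3 were high and the other 3 samples low, so the difference ran across the groups (means 9.68% ± 6.71 and 16.3% ± 6.41, SD, n = 3 each). With a log2 fold change of 0.67 and an edgeR interval of -0.61 to 1.95, large differences in either direction could not be told from none. Il12rb1-205 made up 16.5, 16.5 and 10.1% in TCR alone and 10.9, 11.3 and 7.23% in TCR+DMGV. Here TCR alone replicates 1 and 2 were the high samples and TCR+DMGV replicate 3 the lowest, with means of 14.4% ± 3.68 and 9.82% ± 2.25 (SD, n = 3 each) and overlapping groups. The edgeR log2 fold change was -0.42 (interval -1.14 to 0.29), while that of the membrane form Il12rb1-201 was 0.19 (-0.04 to 0.41).

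**Figure D5:**
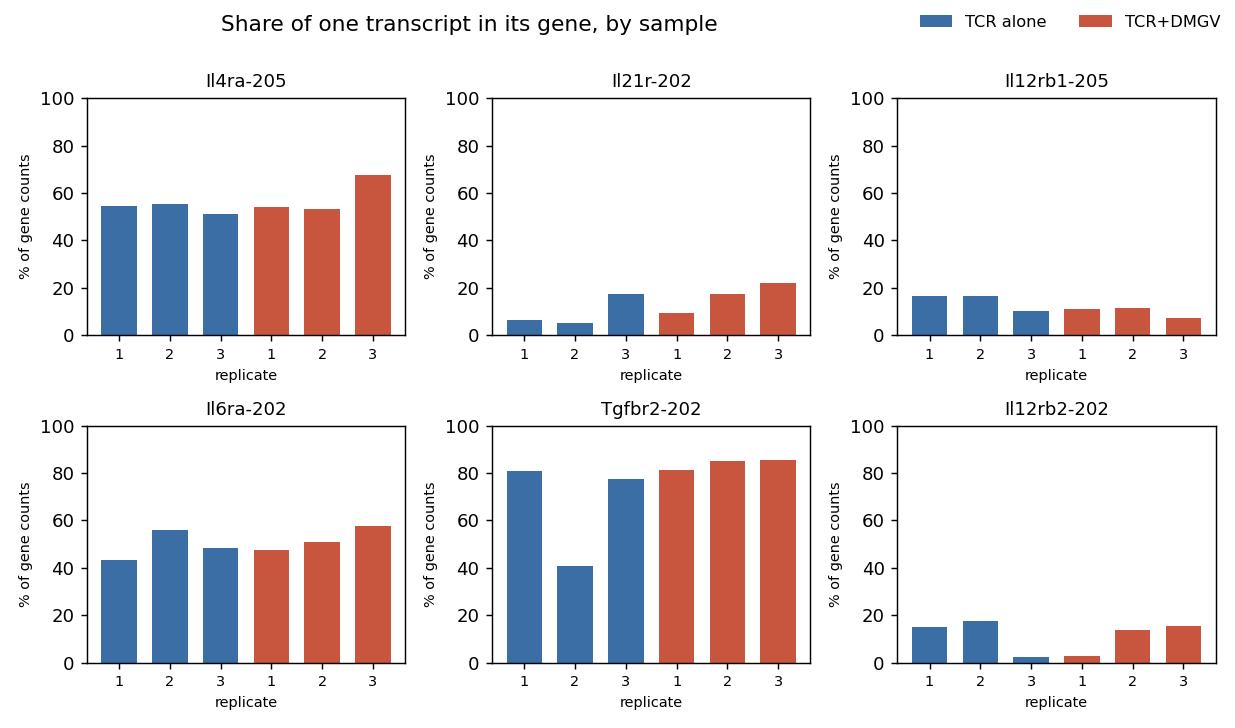
Counts of one transcript as a percentage of the counts of its gene, per sample, for 6 receptor genes (blue, TCR alone; red, TCR+DMGV; replicates 1 to 3). Il4ra-205 is above 50% in every sample, Tgfbr2-202 is low in TCR alone replicate 2 alone (40.7%), and Il12rb2-202 is low in TCR alone replicate 3 and TCR+DMGV replicate 1 (2.53% and 2.92%).

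Tgfbr2-202 has the additional coding exon and a last exon of 6265 bases, against 1629 in Tgfbr2-201. Tgfbr2-202 was the main Tgfbr2 transcript in 5 of 6 samples. It made up 80.9, 40.7 and 77.6% in TCR alone and 81.5, 85.0 and 85.4% in TCR+DMGV, and Tgfbr2-201 made up the rest. As a share of FPKM it held 22.7% in TCR alone replicate 2 and 59.8 to 71.6% in the other samples. All TCR+DMGV samples were above all TCR alone samples, and TCR alone replicate 2 stood far below the rest. The log2 fold change of Tgfbr2-202 was 0.46 (edgeR interval -0.30 to 1.22) with that sample and 0.17 without it, and for Tgfbr2-201 the values were -0.90 (-2.02 to 0.21) and -0.30. Tgfbr1-201 was more even, at 85.9 to 92.8% of the Tgfbr1 counts over the 6 samples. Besides the 12 bases, it differs from Tgfbr1-202 in the first exon and in a last exon of 4280 bases against 1482.

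The Il6ra transcripts, which differ by 3 coding bases and by the length of their last exon, were near equal in counts but not per length, since Il6ra-201 spans 3343 bases and Il6ra-202 8639. Il6ra-202 made up 43.2, 56.1 and 48.5% in TCR alone and 47.6, 50.7 and 57.8% of the counts in TCR+DMGV, with overlapping groups. As a share of FPKM, Il6ra-201 held the larger part in every sample, with 72.5% ± 5.23 in TCR alone and 70.3% ± 4.45 in TCR+DMGV (SD, n = 3 each). Il6st-203 and Il6st-201 code for the same 917 codons and differ in their first exons and 3′ ends. Il6st-201 made up 7.18, 5.93 and 11.3% in TCR alone and 19.5, 10.2 and 10.1% in TCR+DMGV, and its log2 fold change of 0.86 (interval -0.15 to 1.87) had the smallest p of the named transcripts (unadjusted p = 0.0817 by edgeR). The high Il6st level of TCR+DMGV replicate 3 was carried by Il6st-203, with 3433 counts against 2293 to 2516 in the other samples. Ifngr1-201 and Ifngr2-201 held 96.9% or more of the counts of their genes in every sample.

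Il12rb2-202 starts from an exon of its own and holds 540 codons against 874 in Il12rb2-201, both with the hydrophobic stretch. Its counts were 590, 703 and 84 in TCR alone and 102, 483 and 516 in TCR+DMGV. The shares were 15.2, 17.4 and 2.53% in TCR alone and 2.92, 13.6 and 15.4% in TCR+DMGV. The low samples were TCR alone replicate 3 and TCR+DMGV replicate 1, the pair that stood apart on the first principal component, and the groups overlapped. Exons of Il12rb2 share 1519 bases with Serbp1 on the opposite strand, which had 34523 to 44528 counts per sample, and whether the counting used strand is not given in the sources used here. Without strand, reads of Il12rb2 and Serbp1 cannot be told apart over these bases. Il4ra and Il6ra overlap antisense genes with far fewer counts (Gm44876, 18 to 30; Gm42809, 79 to 131).

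The genes around the receptors were read from lists by role. Of 19 ligands 13 were tested and none passed the threshold in either direction, with a median log2 fold change of 0.02. Ifng was the most abundant of them (421 FPKM over the 6 samples), and Clcf1, a cytokine that signals through gp130, had the smallest p (9.27 ± 0.442 CPM in TCR alone and 10.9 ± 0.757 in TCR+DMGV, log2 fold change 0.24, unadjusted p = 0.0883 by edgeR, adjusted p = 0.999). Of 11 partner chains 6 were tested, none called, with a median of 0.05, and Il2rg had the smallest p. The other receptors that use the gamma chain, of which 4 of 5 were tested, all had lower means in TCR+DMGV and none was called, with a median of -0.06. Il2ra, the high-affinity IL-2 receptor chain, was the first of them by p (1029 ± 71.9 and 964 ± 14.9 CPM, log2 fold change -0.09, unadjusted p = 0.238).

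None of the 11 JAK and STAT genes passed the threshold (5 with higher and 6 with lower means, median -0.04), and Stat5b, which relays IL-2 family signals, had the smallest p (log2 fold change -0.21, unadjusted p = 0.157). None of the 16 inhibitors of JAK-STAT signaling passed either (9 higher, 7 lower, median 0.01); Socs3, the feedback inhibitor that binds gp130, came first with 32.8 ± 3.71 CPM in TCR alone and 28.4 ± 2.10 in TCR+DMGV (log2 fold change -0.21, unadjusted p = 0.117). Of 20 SMADs and regulators of TGF-beta signaling 17 were tested and none called (11 higher, 6 lower, median 0.06), with Bambi, a decoy receptor at about 2 CPM, first by p (log2 fold change 0.39, unadjusted p = 0.229). Of 9 genes of receptor shedding and turnover none was called (median 0.01), with Stub1, an E3 ubiquitin ligase, first by p (log2 fold change 0.09).

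None of the 25 genes known to respond to these receptors passed the threshold (12 higher, 13 lower, median -0.01), and 3 had an unadjusted p under 0.05 where 3.19% of all tested genes did. Rora, a nuclear receptor of the Th17 program, had 5.66 ± 1.27 CPM in TCR alone and 2.38 ± 1.31 in TCR+DMGV (log2 fold change -1.25, edgeR unadjusted p = 0.0145, adjusted p = 0.999). Il10, an anti-inflammatory cytokine gene, had 4.62 ± 0.283 and 3.11 ± 0.471 CPM (log2 fold change -0.57, unadjusted p = 0.0157, adjusted p = 0.999). Foxp3, the factor that defines regulatory T cells, had 28.6 ± 3.60 and 36.7 ± 1.47 CPM (log2 fold change 0.36, unadjusted p = 0.0160, adjusted p = 0.999). Groups did not overlap for 5 of the 25 genes, beside 8.86% over all tested genes; these were the 3 above, Ahr (log2 fold change -0.53) and Itgae (0.43).

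The cell type was checked by markers. T cell markers were high in every sample (13 of 13 tested, summed level 3850 to 4409 CPM in TCR alone and 4230 to 4632 in TCR+DMGV); all 13 had higher means in TCR+DMGV, none was called, and Trbc1 had the smallest p (log2 fold change 0.22, unadjusted p = 0.0325). Summed markers of B cells were at 10.7 to 13.97 CPM in TCR alone and 12.9 to 13.6 in TCR+DMGV (5 of 10 tested). Those of myeloid cells were at 35.1 to 41.5 and 36.7 to 44.0 (4 of 12), and those of dendritic cells at 7.23 to 9.74 and 7.87 to 9.80 (3 of 7). All were far below the T cell markers. Most of the myeloid sum was Ctss (26.0 to 35.0 CPM), about the level of Tgfbr1 (25.9 to 43.8). Csf1r (6.91 to 8.67), Cd79b (5.24 to 8.09), Itgax (2.52 to 4.63) and Zbtb46 (3.10 to 4.61) were also detected. Cd14, S100a8, S100a9, Clec9a and Siglech were at 0 in all samples. NK cell markers summed to 59.1 to 69.7 CPM in TCR alone and 68.0 to 81.0 in TCR+DMGV (5 of 7 tested, all with higher means; mostly Eomes, which CD8 T cells also express), and erythroid markers to 3.72 to 4.93 and 1.75 to 3.72 (4 of 6 tested). The genes first by p in these lists, Fcer2a, Fcgr3, Itgax, Klre1 and Hba-a2, had adjusted p-values of 0.999 (edgeR), and the part of cell composition in the receptor values was not tested.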

How the data were processed

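RNA of 6 samples was sequenced on an Illumina Xten after mRNA library preparation. According to the study's methods and the submitters' processing notes, the authors cleaned the reads (SOAPnuke), aligned them (HISAT2 2.0.4) and estimated expression (StringTie); the notes name mm9, and the step from StringTie to counts is not given in the sources used here. The authors deposited whole-number counts per gene and per transcript, 37758725 to 43718867 per sample, and FPKM values, which they scaled to length and sample total. P-values measure the spread between 3 samples per group.

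Counts were tested with edgeR 4.0.16 (R 4.3.3; TMM, filterByExpr, quasi-likelihood, adjusted p threshold 0.05), transcript usage with its diffSpliceDGE function, and chain ratios of deposited FPKM with exact permutation tests (scipy 1.17.1). DESeq2 1.42.0 and limma 3.58.1 served as alternatives, with FPKM pseudocounts of 1 and 0.1. The fits were tested on simulated data, in which the usage test also called unchanged transcripts and the transcript test missed all but very large changes. Names, transcripts and coordinates came from GENCODE M21 (GRCm38), matched to 99.7% of the identifiers without version; the files give no coordinates.

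Named were all 10 receptors, the gene of smallest p in each other list and any gene past the threshold, the transcript of highest mean count and any of 10% or more of its gene in a group, and the 3 genes most like the receptor of smallest p. Ifng, Il2rg, the overlapping genes, Il10, Foxp3, Ahr, Itgae and the markers named for their level or absence were added after their values were seen. The members and lists were chosen with earlier results of these data known.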

Additional observations from a re-analysis of the deposited data

How the results depend on the processing

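No receptor gene was called under any of the 19 alternatives of the gene test, and 180 of 190 values kept their direction; the exceptions were Ifngr2 with limma on log2(FPKM + 0.1) (-0.00013) or a GC trend removed (-0.00089), and samples left out for Ifngr1 (-0.053 to 0.037), Ifngr2 (-0.046 to 0.11) and Il21r (-0.15 to 0.018). Genes called in all, 2, became 14 with DESeq2, 1 with library size alone or with all genes of at least 1 count, 0 with limma on FPKM or a length trend removed, 0 to 5 with a sample left out and 12 without both samples apart on the first component, an alternative chosen after seeing the data. Transcripts called, 0, became 400 with DESeq2, 3 with limma and 0 to 1 with a sample left out, and usage calls, 137, became 33 with at least 10 counts in every sample and 183 to 214 with a sample left out. The cause of these changes was not tested. Ifngr2-201 turned sign with all transcripts of at least 1 count (-0.0042), at least 10 counts (-0.016) and limma (-0.015). With a sample left out the ranges of transcripts that turned sign were -0.068 to 0.013 for Ifngr1-201, -0.076 to 0.079 for Ifngr2-201, -0.90 to 0.057 for Il12rb2-202, -0.089 to 0.029 for Il4ra-205, -0.062 to 0.045 for Il6ra-202, -0.10 to 0.27 for Il6st-203 and -0.40 to 0.029 for Tgfbr1-201. List medians moved for ligands (-0.0070 to 0.15 with a sample left out) and JAK-STAT inhibitors (-0.029 to 0.044). Without both samples apart on the first component the ligand median was -0.034. Ranks of mean level were the same for 6 of 10 receptors with summed transcript FPKM and for 6 with counts per kilobase.

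With the replicate number as a block, 0 genes and 49 usages were called, and Ifngr2-201 was at -0.00048. Samples with the same number did not deviate together (correlations -0.15, 0.12 and -0.15). With 3 samples per group this cannot show whether samples of the same number shared an animal, and the labels do not say.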
